A study of Mus musculus with 12 samples.

Results

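Genes that mark the principal neurons of the hippocampal subfields were followed across 12 RNA libraries of mouse hippocampus. They were 32 markers taken from a list of named genes, of 23382 genes or transcript groups in the deposited table: 15 of dentate granule cells, 10 of CA2 and CA3 pyramidal cells and 7 of CA1 pyramidal cells. All 32 were found and all 32 passed the filter on low counts, with a lowest value of 83 counts in any library. Measured values played no part in how the list was drawn from the table, but it was put together with earlier results of these data known.

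The study sequenced hippocampal RNA of control mice and of aDN-DISC1 mutant mice on a C57BL/6 background, given vehicle or THC (tetrahydrocannabinol), which accounts for most of the psychoactive action of cannabis. The groups were control vehicle, control THC, mutant vehicle and mutant THC, with 3 libraries in each. The title of the series places the genetic vulnerability in astrocytes and the exposure to THC in adolescence. DISC1, a scaffold protein, was first found at a chromosomal breakpoint in a family with psychiatric illness. The promoter of the mutant allele, the dose of THC, and the age and sex of the animals are not given in the sources used here. Control libraries were placed by their titles, because the treatment text of every sample speaks of aDN-DISC1 mice alone and the control samples carry no genotype entry. The labels state 3 samples a group and do not say whether each is a separate mouse, so each p-value reflects only how far these libraries vary, which may be technical. The vehicle libraries carry the numbers 6 to 11 in the labels and the THC libraries 1 to 5 and 12, so library order and treatment cannot be told apart.

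Information enters the hippocampus through the dentate gyrus, whose granule cells send mossy fibre axons to CA3, and passes through CA3 and the small CA2 field to CA1, the main output to the subiculum. Granule cells are held in their identity by the homeobox factor Prox1 and are known for calbindin and for C1q-like proteins at the mossy fibre synapse, CA2 cells for Rgs14 and Pcp4, and CA1 cells for Wfs1. In bulk tissue, fewer cells of a type and less RNA per cell cannot be told apart, and neither can a dissection that holds more of one subfield.

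Total counts ranged from 33165888 to 41389923 per library after rounding. The mouse Disc1 count was at 1.42 to 3.04 CPM (counts scaled to a library of 1000000) in the 12 libraries, with the genotypes overlapping. Prm1, the protamine gene, had 35 to 111 counts in the 6 mutant libraries and 0 or 1 in the 6 control libraries. It was the one gene past the threshold in each genotype comparison. The glutamate transporter gene Slc17a7, which marks excitatory neurons, was at 393 to 768 CPM. Libraries of the same group differed in genes of neighbouring tissue: 12 striatal genes summed to 177 to 208 CPM in 10 libraries, to 597 CPM in mutant vehicle 3 and to 4676 CPM in mutant THC 3, and 10 choroid plexus genes to 61.9 to 133 CPM in 6 libraries and to 3199 to 10943 CPM in the other 6 (control THC 2, the 3 mutant vehicle libraries, mutant THC 1 and mutant THC 3).

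Most granule markers were high or low in the same libraries, so the sequence before some start sites is shown. Of the 32 genes 25 had an entry in the promoter table drawn from RefSeq (GRCm38.p6), with 32 start sites: 18 of granule, 9 of CA2 and CA3 and 5 of CA1 markers. The 250 bases before 4 start sites are printed 5′ to 3′ on the gene's strand, for granule markers at opposite ends in the same pair of libraries (C1ql2 at chr1:120340332-120340581, plus strand, and Lct at chr1:128328319-128328568, minus strand), the CA2 marker with the widest range in CPM (Pcp4 at chr16:96467356-96467605, plus strand) and the CA1 marker with the smallest p-value in a genotype comparison (Wfs1 at chr5:36988983-36989232, minus strand). Capitals mark E-boxes, CANNTG, which read the same on both strands and are the motif bound by basic helix-loop-helix factors.
C1ql2: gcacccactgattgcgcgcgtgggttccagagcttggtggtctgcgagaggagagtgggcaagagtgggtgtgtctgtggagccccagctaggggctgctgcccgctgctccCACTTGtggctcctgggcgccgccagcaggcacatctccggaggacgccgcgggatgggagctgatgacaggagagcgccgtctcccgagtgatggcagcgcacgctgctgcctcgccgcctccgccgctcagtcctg
Lct: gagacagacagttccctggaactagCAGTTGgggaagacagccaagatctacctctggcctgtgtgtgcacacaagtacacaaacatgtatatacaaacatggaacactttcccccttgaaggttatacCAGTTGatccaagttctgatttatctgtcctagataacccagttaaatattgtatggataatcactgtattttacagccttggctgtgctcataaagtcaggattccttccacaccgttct
Pcp4: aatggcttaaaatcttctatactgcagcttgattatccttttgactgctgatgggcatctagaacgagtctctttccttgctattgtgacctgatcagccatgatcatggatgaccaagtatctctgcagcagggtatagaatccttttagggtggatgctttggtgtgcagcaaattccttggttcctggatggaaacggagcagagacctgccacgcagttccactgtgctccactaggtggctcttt
Wfs1: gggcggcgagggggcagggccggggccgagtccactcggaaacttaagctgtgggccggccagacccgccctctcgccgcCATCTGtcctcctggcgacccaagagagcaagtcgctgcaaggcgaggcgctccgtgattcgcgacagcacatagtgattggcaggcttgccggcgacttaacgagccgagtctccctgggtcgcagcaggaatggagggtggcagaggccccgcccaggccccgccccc
An E-box was in 19 of the 32 marker promoters, 11 of the 18 granule, 6 of the 9 CA2 and CA3, and 2 of the 5 CA1 promoters, beside 66.2% of all 32851 promoters of the same length. The GC box GGGCGG, searched on both strands, was in 17 of 32, beside 32.7% of all promoters, and the median GC content was 64.4% beside 52.4%. CCAAT was in 8 (33.8% of all), TATAAA in 3 (12.4% of all) and the cAMP response element TGACGTCA in 0 (1.55% of all), also on both strands. Matches to different motifs could overlap, and a match describes the letters of this window alone.

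Per length of transcript, the markers spanned a wide range in control vehicle mice. Pcp4, which encodes a small calmodulin-binding peptide, stood first at 156 ± 8.51 CPM per kilobase (SD, n = 3). Mpped1, a CA1 gene with a metallophosphoesterase domain, followed at 64.9 ± 8.02 and Bok, a BCL-2 family gene of CA3, at 52.2 ± 6.43. Pcp4 lay clear of the rest, while Mpped1 and Bok lay within the sum of their SDs of each other. Rgs14, a regulator of G-protein signalling that limits plasticity in CA2, was at 47.5 ± 1.60 and C1ql2 at 39.6 ± 2.94 CPM per kilobase. The lowest were the tryptophan dioxygenase gene Tdo2 (3.14 ± 0.688), the vitrin gene Vit (2.08 ± 0.502) and the kinase gene Map3k15 (1.04 ± 0.448). High and low levels were thus found within the same subfield list, and CA2 and CA3 markers held both the first and the last place of the 32.

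The dentate granule markers differed more between libraries in each THC group than in the vehicle group of the same genotype. Prox1 (chromosome 1, 190118035 to 190170827, GRCm38.p6) was at 48.9, 62.6 and 49.4 CPM in control vehicle 1 to 3 and at 57.0, 64.0 and 97.8 CPM in control THC 1 to 3. The mutant libraries had 58.4, 47.7 and 49.6 CPM with vehicle and 41.7, 69.0 and 30.8 CPM with THC. Control THC 3 was highest and mutant THC 3 lowest, and all 4 groups overlapped. C1ql2, which encodes a secreted C1q-like protein of mossy fibre synapses (chromosome 1, 120340582 to 120343174), was at 76.9, 85.9 and 74.8 CPM in control vehicle and at 87.2, 97.2 and 138 CPM in control THC. In mutant mice it was at 89.4, 71.4 and 63.2 CPM with vehicle and at 56.3, 117 and 45.0 CPM with THC. Here the control THC libraries lay above all control vehicle libraries, whereas the mutant THC libraries spanned both ends of the mutant vehicle range.

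Dsp, the desmoplakin gene (chromosome 13, 38151294 to 38198577), was at 106, 141 and 88.8 CPM in control vehicle and at 99.1, 128 and 200 CPM in control THC. The mutant libraries had 113, 122 and 111 CPM with vehicle and 77.2, 113 and 48.1 CPM with THC. Its lowest and highest values were again those of mutant THC 3 and control THC 3. Lct, the lactase gene (chromosome 1, 128284756 to 128328318), was at 97.5, 139.5 and 87.8 CPM in control vehicle and at 97.6, 126 and 187 CPM in control THC. The mutant libraries had 111, 89.2 and 87.6 CPM with vehicle and 71.5, 153 and 56.2 CPM with THC. The order of the libraries was thus close to that of Prox1 and C1ql2, with mutant THC 2 second highest. Stxbp6, which encodes the SNARE-binding protein amisyn, was at 95.2, 104 and 93.4 CPM in control vehicle, 121, 113 and 184 CPM in control THC, 95.9, 91.5 and 107 CPM in mutant vehicle, and 89.0, 158 and 67.8 CPM in mutant THC. Sipa1l2, a Rap GTPase-activating gene of the SPAR family (chromosome 8, 125418068 to 125569863), was at 112, 123 and 113 CPM, at 109, 115 and 148 CPM, at 111, 105 and 101 CPM, and at 87.0, 113 and 68.1 CPM in the same order of groups. In Sipa1l2 the mutant vehicle libraries lay just below all control vehicle libraries, and the mutant THC libraries overlapped the control THC libraries through mutant THC 2 alone.

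Calb1 was the exception among the granule markers. The calbindin gene (chromosome 4, 15881264 to 15906709) was at 145, 133.5 and 147 CPM in control vehicle, 167, 144 and 182 CPM in control THC, 147, 139.7 and 156 CPM in mutant vehicle, and 149, 165 and 193 CPM in mutant THC. It had the narrowest spread of the 32 markers, with an SD within groups of 0.14 on the log2 scale, and its highest value was in mutant THC 3, where 11 of the 15 granule markers had their lowest. Calbindin is also made in striatal projection neurons, whose genes were high in that library (4676 CPM summed), and the part of those cells in its level was not tested. Of the other granule markers, the Rac and Cdc42 activator gene Dock10 ranged from 203 to 325 CPM, the ciliogenesis factor gene Rfx3 from 178 to 395, the insulin-like growth factor binding protein gene Igfbp5 from 82.5 to 142 and the cation channel gene Trpc6 from 57.3 to 124. The zinc finger factor gene Glis3 ranged from 18.8 to 43.9 CPM, the polo-like kinase gene Plk5 from 13.6 to 42.7, the nephronectin gene Npnt from 9.47 to 30.8 and Tdo2 from 8.06 to 19.8. All 8 were highest in control THC 3, and for Rfx3, Igfbp5, Trpc6, Glis3 and Npnt the lowest value was in mutant THC 3.

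**Figure D1:**
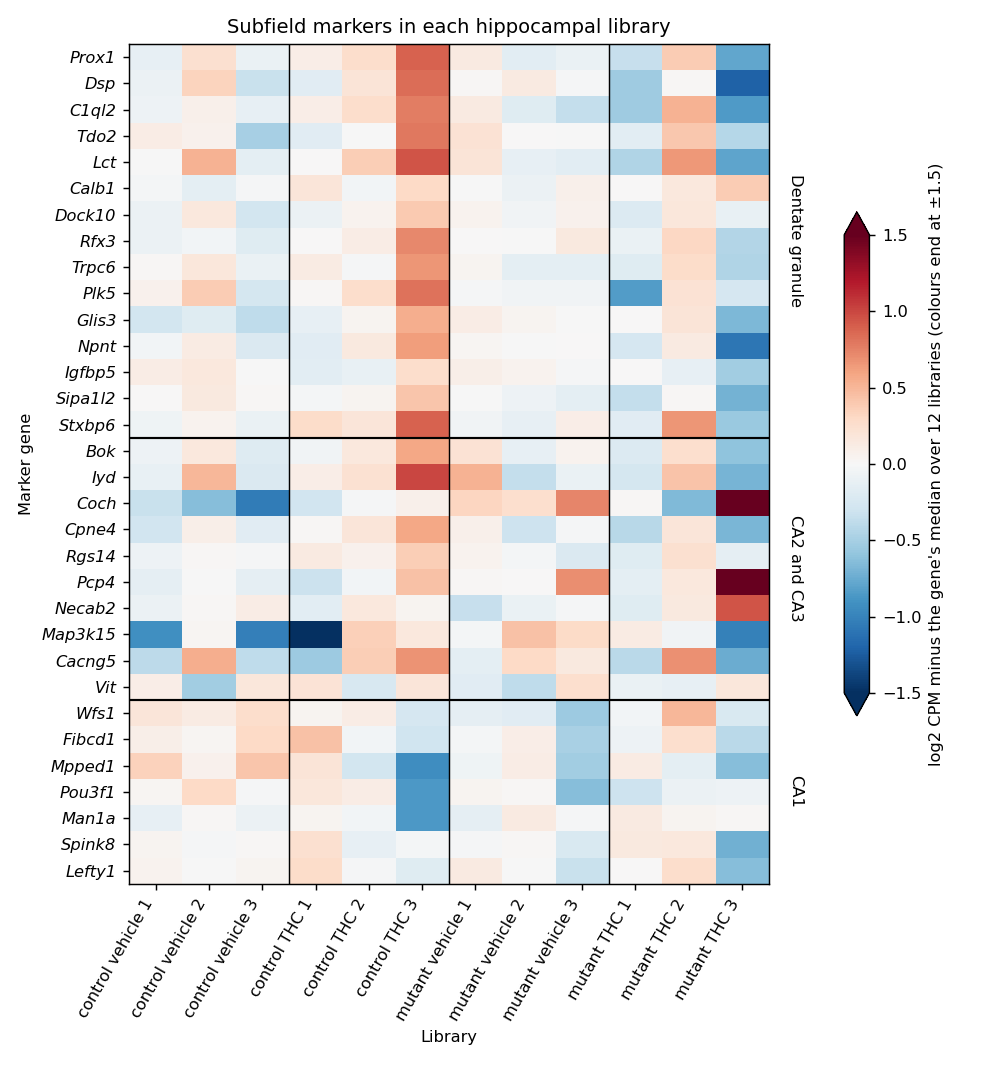
Each row is 1 of the 32 markers and each column 1 of the 12 libraries. Colour gives log2 CPM minus the gene's median over the 12 libraries, with colours ending at ±1.5, and lines part the groups and the subfields. Control THC 3 is red for the 15 granule markers and blue or pale for the 7 CA1 markers, while mutant THC 3 is blue for 14 granule markers and dark red for Coch and Pcp4.

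Across the library set, 2 libraries stood at opposite ends of the granule markers. Control THC 3 was the highest of 12 for 14 of 15 granule markers, with a median deviation of 0.72 on the log2 scale from each gene's median over libraries. Mutant THC 3 was the lowest for 11 of 15, with a median deviation of -0.56, and mutant THC 2 lay above the median for 14 of 15 (0.22). The mean log2 CPM over the 15 granule markers, called the granule level here, was 6.13, 6.31 and 5.99 in control vehicle, 6.16, 6.29 and 6.82 in control THC, 6.23, 6.12 and 6.13 in mutant vehicle, and 5.90, 6.44 and 5.61 in mutant THC. Group means were 6.14 ± 0.16, 6.43 ± 0.35, 6.16 ± 0.06 and 5.98 ± 0.42 (SD, n = 3), with control THC 3 apart from its group and the 3 mutant THC libraries spread out. The SD in each THC group exceeded the difference of its mean from the vehicle group of the same genotype.

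In CA1 markers a different set of libraries stood low. Control THC 3 was below the median for 7 of 7 CA1 markers (median deviation -0.30), mutant vehicle 3 for 7 of 7 (-0.49) and mutant THC 3 for 6 of 7 (-0.41), while control THC 1 was above it for 7 of 7 (0.19). The CA1 level, formed in the same way, was 5.97, 5.95 and 6.01 in control vehicle, 6.08, 5.84 and 5.39 in control THC, 5.85, 5.91 and 5.48 in mutant vehicle, and 5.88, 6.02 and 5.5 in mutant THC. One library in each group but control vehicle was thus low in CA1 markers. The granule level minus the CA1 level was 1.43 in control THC 3 and between -0.02 and 0.65 in the other 11 libraries. Mutant THC 3 was low in both lists, with a difference of 0.11, and stood inside the range of the others on this measure.

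Mpped1 (chromosome 15, 83779472 to 83858487) carried the widest range among CA1 markers, at 222, 182 and 232 CPM in control vehicle, 199, 144 and 91.4 CPM in control THC, 167, 188 and 121 CPM in mutant vehicle, and 189, 157 and 112 CPM in mutant THC. Its control vehicle libraries overlapped each other group by their lowest member alone. Wfs1, which encodes the endoplasmic reticulum protein wolframin (chromosome 5, 36966104 to 36988982), was at 118, 113 and 125 CPM in control vehicle, 107, 112 and 87.1 CPM in control THC, 94.8, 92.4 and 71 CPM in mutant vehicle, and 101, 147 and 88.5 CPM in mutant THC. All 3 control THC and all 3 mutant vehicle libraries lay below the control vehicle libraries in Wfs1, and the mutant THC libraries lay on both sides. Pou3f1, a POU domain factor gene, was at 43.2, 52.3 and 41.9 CPM in control vehicle, 47.6, 45.6 and 23.4 CPM in control THC, 43.4, 42.7 and 27.2 CPM in mutant vehicle, and 34.2, 39.7 and 40.1 CPM in mutant THC. Its low libraries were control THC 3 and mutant vehicle 3, whereas mutant THC 3 was near its group. The Golgi mannosidase gene Man1a was at 54.2 CPM in control THC 3 and at 89.8 to 108 CPM in the other 11 libraries. Fibcd1, which encodes a chitin-binding membrane protein, ranged from 87.8 to 168 CPM with its lowest value in mutant vehicle 3. The peptidase inhibitor gene Spink8 (13.1 to 25.6 CPM) and the nodal antagonist gene Lefty1 (7.77 to 14.6 CPM) were lowest in mutant THC 3.

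**Figure D2:**
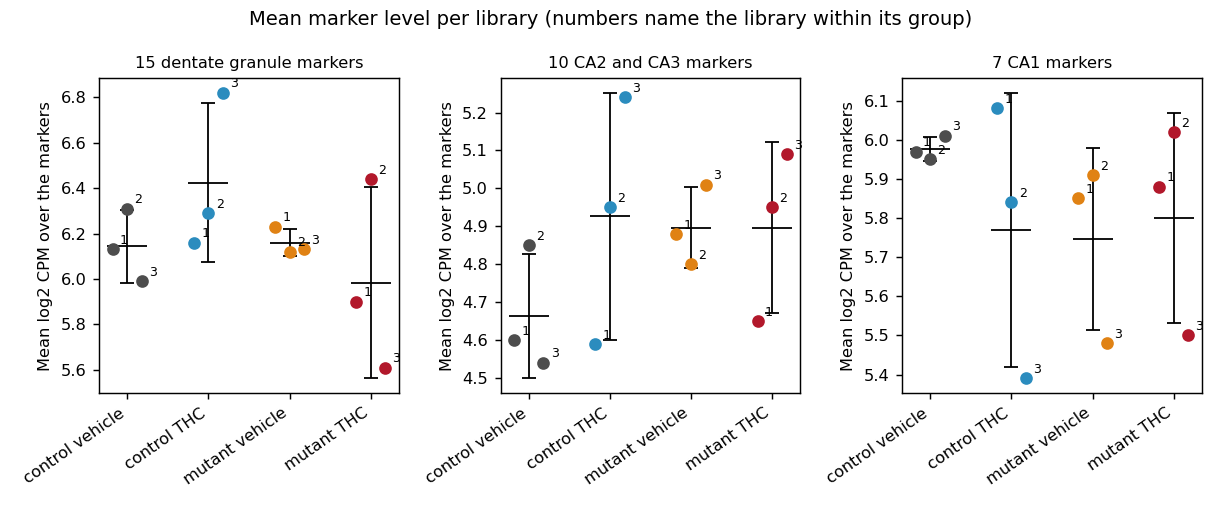
Points give the mean log2 CPM over 15 dentate granule, 10 CA2 and CA3, and 7 CA1 markers in each library, numbered within its group, with the group mean and SD (n = 3) as lines. The vertical axes do not start at 0. Control THC 3 is at 6.82 for granule and 5.39 for CA1 markers, and mutant THC 3 at 5.61 and 5.5.

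The CA2 and CA3 markers fell into genes that followed the granule pattern and genes that did not. Bok (chromosome 1, 93685575 to 93695770) was at 74.1, 87.0 and 68.6 CPM in control vehicle, 75.6, 87.0 and 117 CPM in control THC, 91.0, 71.7 and 80.8 CPM in mutant vehicle, and 67.9, 92.7 and 51.4 CPM in mutant THC. Cpne4, a calcium-dependent membrane-binding copine (chromosome 9, 104566701 to 105034544), was at 94.1, 122 and 102 CPM, at 115, 129.7 and 172 CPM, at 121, 92.7 and 114 CPM, and at 85.7, 129.9 and 71 CPM in the same order. Both were highest in control THC 3 and lowest in mutant THC 3, like most granule markers, and so was the iodotyrosine deiodinase gene Iyd (3.36 to 10.8 CPM). Rgs14 ranged from 97.8 to 148 CPM and was also highest in control THC 3. The AMPA receptor auxiliary subunit gene Cacng5 ranged from 10.6 to 28.5 CPM, Map3k15 from 2.31 to 9.02 and Vit from 3.95 to 6.77, and these 3 had their highest values in mutant THC 2, mutant vehicle 2 and mutant vehicle 3.

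Pcp4, Coch and Necab2 were highest in mutant THC 3, where 6 of the 10 CA2 and CA3 markers were below their median. Vit was also above its median there, at 6.38 CPM. Pcp4 (chromosome 16, 96467606 to 96525793) was at 97.0, 106 and 97.2 CPM in control vehicle, 85.2, 104 and 144 CPM in control THC, 108, 107 and 173 CPM in mutant vehicle, and 96.5, 119 and 581 CPM in mutant THC. Coch, the cochlin gene (chromosome 12, 51593283 to 51606619), was at 10.7, 8.70 and 6.57 CPM in control vehicle, 11.2, 13.4 and 14.4 CPM in control THC, 17.0, 16.2 and 22.6 CPM in mutant vehicle, and 13.7, 8.56 and 102 CPM in mutant THC. The calcium-binding protein gene Necab2 was at 58.5, 62.8 and 66.9 CPM, at 55.8, 69.1 and 63.8 CPM, at 48.9, 57.8 and 61.4 CPM, and at 54.5, 68.6 and 119.6 CPM in the same order. In Pcp4 and Coch the 2 highest libraries of 12 were mutant THC 3 and mutant vehicle 3. Among striatal genes the dopamine receptor Drd2 stood beside them with 52.1 CPM in mutant THC 3, 4.57 in mutant vehicle 3 and at most 1.62 elsewhere, and the adenosine receptor Adora2a with 192, 16.3 and at most 1.78 CPM. Of the 12 striatal genes Six3 alone was at 0 in any library, in control vehicle 3 and control THC 1. The part of the striatal transcripts in the levels of Pcp4, Coch and Necab2 was not tested.

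**Figure D3:**
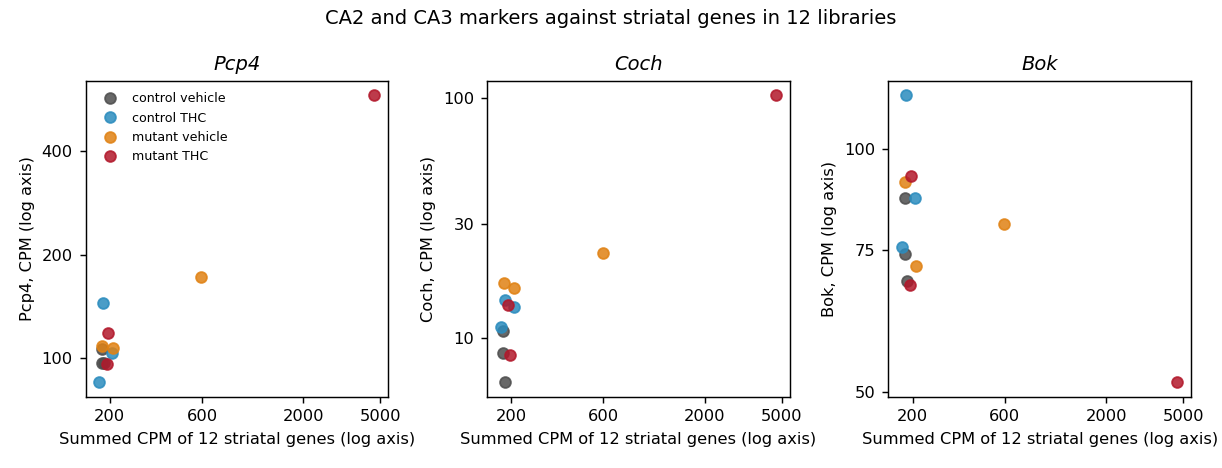
Each point is 1 of the 12 libraries, with the summed CPM of 12 striatal genes on the horizontal log axis and the CPM of Pcp4, Coch or Bok on the vertical log axis. Mutant vehicle 3 (597) and mutant THC 3 (4676) lie apart from the other 10 libraries (177 to 208), with Pcp4 and Coch highest and Bok lowest in mutant THC 3.

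Beside the high granule level of control THC 3, the lists of subiculum and ventral hippocampus genes had their lowest mean in that library. The mean log2 CPM of 10 CA3 and CA2 genes outside the markers was highest there, at 6.28, against 5.54 to 6.06 elsewhere. That of 6 subiculum genes was 1.78 in control THC 3 and 2.98 to 3.9 in the other 11 libraries. For 8 ventral hippocampus genes it was 2.85 against 3.21 to 4.30. Slc17a6, a glutamate transporter gene of the subiculum, was at 7.65 CPM and the neurotensin gene Nts at 0.28 CPM in control THC 3, against 15.2 to 62.4 and 4.60 to 13.5 CPM elsewhere. Not all members were low there: the subiculum genes Fn1 and Tle4 were at 65.7 and 74.4 CPM, against 24.9 to 110.2 and 69.6 to 105 CPM elsewhere, and the ventral gene Gpc3 at 7.21 CPM, against 3.82 to 7.64. The summed subiculum level of control THC 3 (148.6 CPM) was close to that of mutant THC 2 (149.2 CPM). Summed over the list, subiculum genes were at 183 to 219.5 CPM in control vehicle, 149 to 237 in control THC, 188 to 205 in mutant vehicle and 149 to 212 in mutant THC, and ventral genes at 203 to 319.5, 109 to 318, 227.5 to 317 and 175 to 334.5 CPM, with no gene of either list at 0. The ventral gene Htr2c was at 30.2 to 98.5 CPM in the 6 libraries high in choroid plexus genes and 6.42 to 26.8 elsewhere. The part of choroid plexus in the summed ventral level was not tested. Choroid plexus genes summed to 105 CPM in control THC 3 and striatal genes to 185 CPM, within the range of the control vehicle libraries. The 7 oligodendrocyte genes summed to 3219 CPM in control THC 3, the lowest of the 12 libraries, and to 6849 CPM in mutant THC 3, the highest, with none at 0. The part of the dissected region and of these cells in the marker levels was not tested.

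The spread of the markers within groups was wide beside that of all genes at or above the lowest marker's level, a set not matched for level. The median SD within groups on the log2 scale was 0.37 over the 15 granule markers (0.14 to 0.49), 0.40 over the 10 CA2 and CA3 markers (0.16 to 0.98) and 0.28 over the 7 CA1 markers (0.25 to 0.39). Over all 11561 genes at or above the level of the lowest marker it was 0.11. Coch (0.98) and Pcp4 (0.76) had the widest spread, both through mutant THC 3. Within the control vehicle group the SD ran from 0.03 for the CA1 genes Spink8 and Lefty1 and 0.08 for Pcp4 to 0.54 for Cacng5 and 0.57 for Map3k15.

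The first comparison asked what THC changed in control mice, and 0 of 32 markers passed the threshold (edgeR quasi-likelihood test, Benjamini-Hochberg adjusted p under 0.05), as did 0.0% of the 15802 genes tested. At an unadjusted p under 0.05 there was 1 marker, Glis3, where 7.0% of all genes had such a p. Glis3 was at 24.8, 26.5 and 23.2 CPM in vehicle and 27.8, 31.1 and 43.9 CPM in THC, without overlap, with a log2 fold change of 0.46 ± 0.21 (SE, edgeR adjusted p = 0.71). Next were Rfx3, at 227, 233 and 212 against 242, 261 and 395 CPM (0.42 ± 0.20, edgeR adjusted p = 0.72), and Calb1 (0.22 ± 0.10, edgeR adjusted p = 0.72). None of these 3 passed. The groups did not overlap for 6 markers that were higher in THC (C1ql2, Rfx3, Glis3, Stxbp6, Coch and Rgs14), beside 8.3% of all genes in that direction, and for 1 that was lower, Wfs1, beside 8.07%.

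By subfield the median log2 fold change with THC in control mice was 0.34 for granule, 0.27 for CA2 and CA3 and -0.17 for CA1 markers, against 0 over all genes. Of the granule markers 14 of 15 were above 0, of the CA2 and CA3 markers 10 of 10, and of the CA1 markers 2 of 7, where 50.1% of all genes were above 0. These medians rested on control THC 3, without which they were 0.04, 0.08 and 0.06. Without it the value of Glis3 was 0.24, that of Rfx3 0.16 and that of Mpped1, named here after its values were seen, -0.31 in place of -0.55. Further genes of CA3 and CA2 that were not among the markers had a median of 0.23 over 10 genes, with 8 above 0. A list of 15 general neuron genes, which holds Snap25, Syt1 and Nefl beside genes of excitatory neurons, had a median of 0.09. None of these 25 genes passed the threshold.

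In mutant mice, 0 of 32 markers passed the threshold after THC (edgeR quasi-likelihood test, background 0.0%). Necab2 had an unadjusted p under 0.05, as did 5.73% of all genes, with a log2 fold change of 0.53 ± 0.23 (SE, edgeR adjusted p = 0.81). Without mutant THC 3 the value was 0.14. Wfs1 was at 0.38 ± 0.18 and Calb1 at 0.19 ± 0.10 (edgeR adjusted p = 0.81 for both), and Calb1 was at 0.09 without mutant THC 3, while Wfs1 was at 0.14 without mutant THC 2. No marker had groups without overlap, beside 8.47% of all genes. The medians were -0.09 for granule, -0.04 for CA2 and CA3 and 0.01 for CA1 markers, against -0.01 over all genes. Of the granule markers 13 of 15 were below 0, where 52.5% of all genes were. The medians lay close to that of all genes, although the granule levels ran from 6.12 to 6.23 with vehicle and from 5.61 to 6.44 with THC.

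Under vehicle, mutant mice differed from control mice past the threshold in 0 of 32 markers (edgeR quasi-likelihood test, background 0.00633%). Wfs1 had an unadjusted p under 0.05, as did 17.8% of all genes, and its 3 mutant libraries (71 to 94.8 CPM) lay below its 3 control libraries (113 to 125 CPM). Its log2 fold change was -0.46 ± 0.18 (SE, edgeR adjusted p = 0.22), and -0.34 with an edgeR adjusted p = 0.65 without mutant vehicle 3. Map3k15 was at 3.50, 6.74 and 3.26 CPM in control and 6.51, 9.02 and 8.07 CPM in mutant mice (0.81 ± 0.46, edgeR adjusted p = 0.38), and Glis3 at 32.6, 30.9 and 30.1 CPM in mutant mice (0.33 ± 0.21, edgeR adjusted p = 0.43). Groups did not overlap for 4 markers that were higher in mutants, Rfx3, Glis3, Coch and Pcp4, beside 15.3% of all genes, and for Sipa1l2 and Wfs1 among those that were lower, beside 12.7%. In this contrast choroid plexus genes summed to 61.9 to 133 CPM in control and to 3944 to 10943 CPM in mutant libraries, with none of the 10 at 0, and their part in the markers' values was not tested.

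The subfield medians under vehicle were 0.01 for granule, 0.06 for CA2 and CA3 and -0.27 for CA1 markers, against -0.01 over all genes. Of the CA1 markers 6 of 7 were below 0, where 51.1% of all genes were. Without mutant vehicle 3 the CA1 median was -0.09. The 15 general neuron genes had a median of -0.18 with 14 below 0, and 0 of them passed the threshold.

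Between genotypes under THC the subfield median farthest from 0 was that of the granule markers, and again 0 of 32 markers passed (edgeR quasi-likelihood test, background 0.00633%). At an unadjusted p under 0.05 there were 5 markers, all lower in mutants, Prox1, Dsp, Plk5, Sipa1l2 and Cpne4, where 4.27% of all genes were lower and 4.71% higher at that p. Sipa1l2 had a log2 fold change of -0.48 ± 0.16, Dsp of -0.84 ± 0.32 and Cpne4 of -0.54 ± 0.22 (SE, edgeR adjusted p = 0.55 for each). No marker had groups without overlap, beside 10.5% of all genes. The granule median was -0.41, the CA2 and CA3 median -0.16 and the CA1 median -0.03, against 0.01 over all genes. Below 0 were 14 of 15 granule, 7 of 10 CA2 and CA3 and 4 of 7 CA1 markers, where 48.5% of all genes were. This comparison uses the same control THC libraries as that of THC in control mice. Other lists differed beside the markers: all 7 oligodendrocyte genes were above 0 with an unadjusted p under 0.05 (median 0.52, summed 3219 to 4817 CPM in control and 4255 to 6849 CPM in mutant libraries), and so were 10 of 12 striatal genes (median 3.2, summed 177 to 206 and 193 to 4676 CPM). None of these passed the threshold, and their part in the markers' values was not tested.

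These values depended on single libraries of the THC groups. Without mutant THC 2 the granule median was -0.68. Without control THC 3 the granule median was -0.16, and without both control THC 3 and mutant THC 3 it was 0.01, with Sipa1l2 at -0.17, Dsp at -0.25 and Cpne4 at -0.18. Without both, 0 markers had an unadjusted p under 0.05, as did 2.5% of all genes in that fit. Coch and Pcp4, named after their values were seen, were higher in mutants by 1.68 ± 0.76 and 1.26 ± 0.59, and at -0.23 and -0.05 without mutant THC 3. The 10 further CA3 and CA2 genes had a median of -0.40 with 9 below 0, among them 4 lower and 1 higher at an unadjusted p under 0.05. Ptpn5 (STEP), the phosphatase gene that was above 0, was at 286 CPM in mutant THC 3 and 46.4 to 67.9 CPM in the other libraries.

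**Figure D4:**
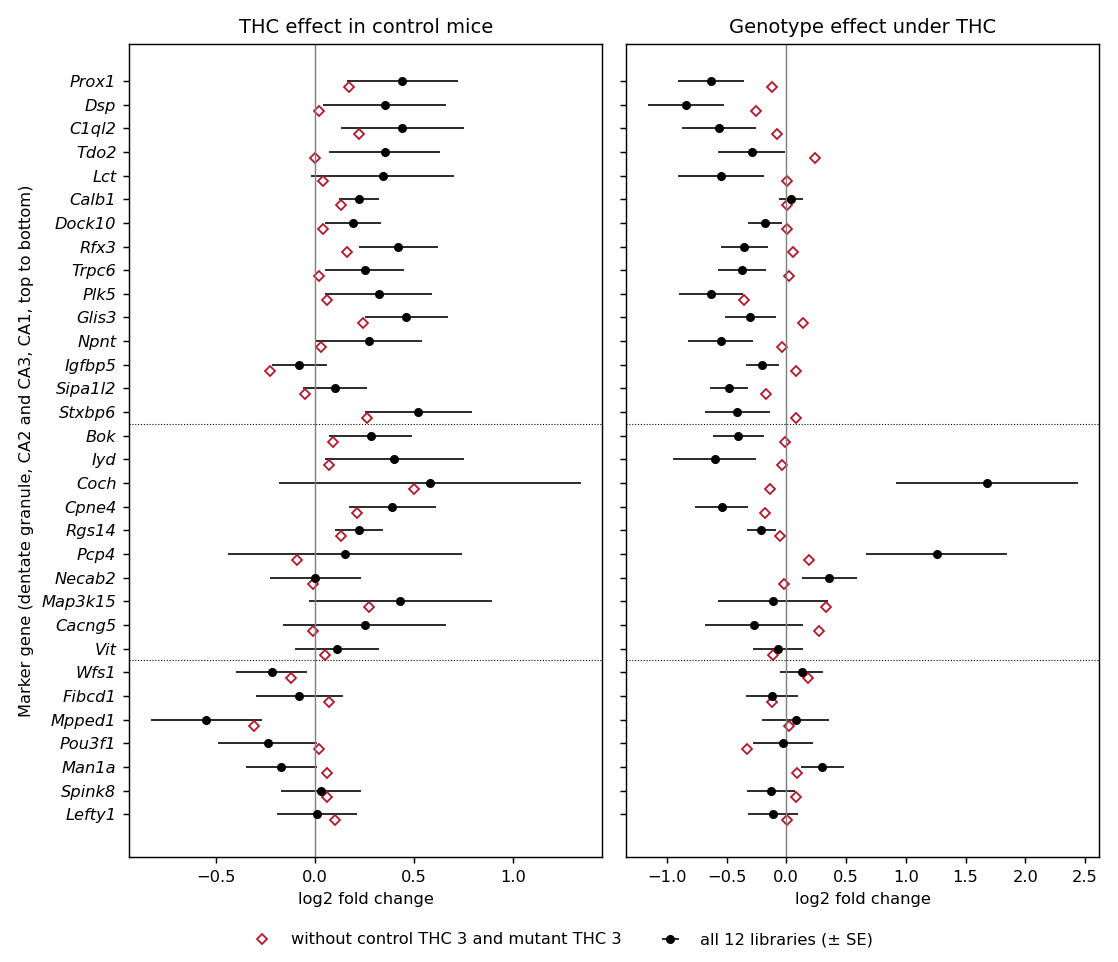
Points give the log2 fold change of each marker with its SE over all 12 libraries, for THC in control mice and for genotype under THC, and open diamonds the value without control THC 3 and mutant THC 3. With the 2 libraries left out, the granule medians are 0.04 and 0.01 in place of 0.34 and -0.41.

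The test of whether THC acted differently in the genotypes gave 0 of 32 markers past the threshold (edgeR quasi-likelihood test of the interaction, background 0.0%). Wfs1 had an unadjusted p under 0.05, as did 6.59% of all genes, with an interaction of 0.60 ± 0.25 on the log2 scale (SE, edgeR adjusted p = 0.74). Its log2 fold change with THC was -0.22 in control and 0.38 in mutant mice. Without mutant THC 2 the interaction of Wfs1 was 0.35. Glis3 was at -0.63 ± 0.30 and Dsp at -0.89 ± 0.45 (edgeR adjusted p = 0.76 for both), and both came to -0.19 and -0.30 without control THC 3 and mutant THC 3. The medians were -0.44 for granule, -0.28 for CA2 and CA3 and 0.24 for CA1 markers, against 0 over all genes, and the granule median was -0.05 without those 2 libraries. All 15 granule markers were below 0, where 48.7% of all genes were, and 5 of 7 CA1 markers above it, where 51.3% were.

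Averaged over treatments, 0 of 32 markers passed for genotype (edgeR quasi-likelihood test, background 0.00633%). Sipa1l2 and Coch had an unadjusted p under 0.05, as did 21.2% of all genes. Sipa1l2 was at -0.30 ± 0.11 (SE, edgeR adjusted p = 0.18), with -0.13 under vehicle and -0.48 under THC. Coch was at 1.39 ± 0.54 (edgeR adjusted p = 0.19), and at 0.44 without mutant THC 3. Plk5 was at -0.38 ± 0.19 (edgeR adjusted p = 0.27). Without mutant THC 2, the library of its group with the highest granule level, Sipa1l2 was at -0.40 with an edgeR adjusted p = 0.042. In that fit 2 of 32 markers, Sipa1l2 and C1ql2, passed, beside 942 of all 15940 genes tested. The direction of Sipa1l2 was the same in each of the 12 fits that left out a library.

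Averaged over genotypes, 0 of 32 markers passed for THC (edgeR quasi-likelihood test, background 0.0%). Calb1 had an unadjusted p under 0.05, as did 6.05% of all genes, with a log2 fold change of 0.21 ± 0.07 (SE, edgeR adjusted p = 0.79). Its 6 vehicle libraries ranged from 133.5 to 156 CPM and its 6 THC libraries from 144 to 193 CPM. The change lay on the same side in both genotypes, and was 0.15 without mutant THC 3, the library with the highest Calb1. Rgs14 was at 0.14 ± 0.08 and Igfbp5 at -0.16 ± 0.10 (edgeR adjusted p = 0.83 for both). In all 7 comparisons DESeq2 and limma-voom also called 0 of 32 markers, with 1 to 7 and 0 to 7 of them at an unadjusted p under 0.05, beside 6.12% to 22.1% and 5.92% to 20.7% of all genes. The smallest adjusted p of a marker was 0.093 with DESeq2, for Sipa1l2 in the averaged genotype effect.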

How the data were processed

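RNA of 12 hippocampal libraries was sequenced after removal of ribosomal RNA. The authors deposited 1 table of RSEM expected counts per RefSeq gene, not scaled for depth or length. Tools listed in the submitters' processing notes are RSEM 1.2.21, Bowtie2 2.2.2, edgeR 3.10.2, CASAVA 1.8.4 and FastQC, with the build mm10. Whether reads were counted by strand is not stated, so genes that overlap another are uncertain. All columns matched a sample, and 235 accessions without a symbol held 0.73% of the counts.

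Here the expected counts were rounded, filtered with filterByExpr (15802 genes kept) and scaled with TMM (0.989 to 1.01). The main test was edgeR 4.0.16 (R 4.3.3, glmQLFit with robust estimation, glmQLFTest) over 4 group means with 8 residual degrees of freedom and 7 contrasts, adjusted by Benjamini-Hochberg over all genes tested, threshold 0.05. Levels are CPM; mean levels over a list use log2 CPM with a prior count of 2. Lengths are those of the transcripts matched by accession.

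The 32 markers and 16 lists of other markers were chosen with earlier results of these data known. Fold changes with errors are given for every marker past the threshold and, where fewer than 3 passed, for the 3 with the smallest p; genes named outside this rule are said to be so. Alternatives were DESeq2 1.42.0, its size factors in edgeR, limma-voom (limma 3.58.1), no filter, a prior count of 0.5 for log2 CPM, and leaving out libraries. Libraries of a group were checked for repeats and none was found. On simulated data with 200 changed genes, the test recovered 59.7% of changes of 1.5-fold for THC in control mice (15684 genes) and 16.4% for the interaction (15705 genes). The changed genes were drawn at random from all but low-count genes, with each library simulated independently. The markers spread more within groups than most genes at or above the lowest marker's level, and many moved together by library. These rates thus do not give the recovery for the markers.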

Additional observations from a re-analysis of the deposited data

How the results depend on the processing

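No paired analysis was possible because the labels give no pairing of libraries between groups. Every marker had at least 83 counts in each library, and 3 libraries a group limit the precision. Over all genes, DESeq2 called 12 genes for THC in control mice, 3 for THC in mutants, 781 and 7 for genotype under vehicle and under THC, 34 for the interaction, 785 for genotype and 3 for THC averaged, where edgeR called 0, 0, 1, 1, 0, 1 and 0; limma-voom called 0 for genotype under vehicle and under THC. Leaving out 1 library gave 0 to 3 genes for THC in mutants, 0 to 6 and 0 to 2 for genotype under vehicle and under THC, 0 to 10 for the interaction and 1 to 942 for genotype averaged, with 0 to 2 markers. Genotype under vehicle and under THC gave 0 genes each without mutant vehicle 3 and mutant THC 3, and 0 each without control THC 3 and mutant THC 3, an omission chosen after seeing the data. Leaving out 1 library moved the granule median from 0.04 to 0.53 for THC in control mice and from -0.79 to -0.20 for the interaction, and the CA2 and CA3 median from -0.27 to 0.07 for THC in mutants, from 0.01 to 0.21 for genotype under vehicle and from -0.52 to -0.09 for the interaction. The CA1 median for genotype under vehicle went from -0.37 to -0.09, and was -0.09 without mutant vehicle 3 and mutant THC 3. Without control THC 3 and mutant THC 3 the granule median was 0.04 for THC in control mice, 0.01 for genotype under THC and -0.05 for the interaction. Leaving out mutant THC 2 gave 17 markers at an unadjusted p under 0.05 for genotype under THC and 13 for the interaction, beside 20% and 9.57% of all genes in those fits. Over the alternatives the sign turned in 29 of 357 values of the subfield medians, which carry no test. Among these, CA1 for THC in control mice was at 0.06 without control THC 3, and granule for THC in mutants at 0.07 without mutant THC 3. The sign turned in 0 of the values of the markers given with errors by the rule for named genes. The cause was not tested.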

Other observations

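The list mean of genes of mossy cells, the excitatory neurons of the dentate hilus, ran over a narrower range than that of the granule markers, although single genes could range widely. The mean log2 CPM of 6 such genes was 4.28, 4.37 and 4.38 in control vehicle, 4.34, 4.46 and 4.39 in control THC, 4.24, 4.42 and 4.65 in mutant vehicle, and 4.41, 4.20 and 3.98 in mutant THC. By this mean, control THC 3, the highest library in granule markers, lay inside the range of the others, and mutant THC 3 was the lowest in both lists. Summed over the 6 genes, control THC 3 was instead the lowest library, at 216 CPM against 227.5 to 272.2 CPM elsewhere. The calretinin gene Calb2, a mossy cell marker also found in interneurons, was at 43.4 CPM in mutant vehicle 3 and at 10.6 to 26.0 CPM in the other 11 libraries. Across the 15 general neuron genes the level was 7.45 in control THC 3, 6.91 in mutant THC 3 and 7.04 to 7.44 in the other 10 libraries.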
